A study of Mus musculus with 10 samples.

Results

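The receptors that let myeloid cells bind antibody and sense damaged tissue were followed here as 8 genes: the Fc gamma receptors Fcgr1, Fcgr2b, Fcgr3 and Fcgr4, the triggering receptors expressed on myeloid cells Trem1 and Trem2, and the adaptors Fcer1g and Tyrobp (DAP12) through which most of them signal. The genes were chosen as a family, with earlier results of these data known, and were taken by their symbols. All 8 were found among the 18384 genes listed in the mRNA-seq files, with reads in every library. The mRNA-seq compared mouse adipocyte precursors (APs) kept without IL-4, the control group (3 cultures, replicates 1 to 3), with APs incubated with the type 2 cytokine IL-4 (3 cultures, replicates 4 to 6), all harvested on day 4. The cells came from subcutaneous white adipose tissue of C57BL/6J mice, were freed of CD45- and CD31-positive cells, were selected for SCA-1 and were then grown in dishes. No transgene or knockout was used, the ages of the mice and the dose of IL-4 are not given in the sources used here, and nothing in the labels says whether the cultures came from separate animals, so that p-values measure the spread between these cultures only.

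Fc gamma receptors bind the constant part of IgG. FcγRI, FcγRIII and FcγRIV, the products of Fcgr1, Fcgr3 and Fcgr4, activate the cell through the shared gamma chain encoded by Fcer1g, whereas FcγRIIB, the product of Fcgr2b, carries its own inhibitory motif and restrains them. TREM1 amplifies inflammatory responses and TREM2 senses lipids and lipoproteins, and both pair with the adaptor TYROBP. In adipose tissue these genes are known from macrophages, which express most of them.

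The motifs that make an adaptor activating and FcγRIIB inhibitory are short, and they are shown because the results below turn on this opposition. An immunoreceptor tyrosine-based activation motif (ITAM) holds a pair of tyrosines, each followed 3 residues later by leucine or isoleucine, and is phosphorylated by Src-family kinases to recruit SYK. An inhibitory motif (ITIM) holds a single such tyrosine and recruits phosphatases. The coding sequence (RefSeq transcripts on GRCm38, 5′ to 3′) around each tyrosine is given below, with capitals for the tyrosine codon and for the leucine codon 3 residues on, and in the ITIM also for the isoleucine codon 2 residues before the tyrosine.
Fcer1g, tyrosine 65 of 86 residues: gtcTACacgggcCTGaac
Fcer1g, tyrosine 76: acaTATgagactCTGaag
Tyrobp, tyrosine 92 of 114 residues: cctTATcaggagCTTcag
Tyrobp, tyrosine 103: gtaTACagtgacCTCaac
Fcgr2b, tyrosine 272 of 293 residues: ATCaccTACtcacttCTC
A search of the translated coding sequences found 1 ITAM in each adaptor and none in the 6 receptors. The 4 neighbouring loci of the family lie on chromosome 1, where Fcgr2b (170960558 to 170976071, minus strand of GRCm38), Fcgr4 (171018926 to 171029761, plus strand), Fcgr3 (171051169 to 171059403, minus strand) and Fcer1g (171229572 to 171234349, minus strand) fall within 273792 bases. Trem1 (48232739 to 48246924) and Trem2 (48346401 to 48352276) lie on the plus strand of chromosome 17 within 119538 bases. Fcgr1 lies on chromosome 3 (96282909 to 96293969, minus strand) and Tyrobp on chromosome 7 (30413782 to 30417582, plus strand). These positions are those of the RefSeq transcripts used here.

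The libraries held 28526782 to 29057787 expected counts, the estimated numbers of reads per gene, and 14009 genes had enough counts to be compared. The 13 AP markers on the list summed to 6868 to 7278 FPKM in control and 7899 to 8569 FPKM in IL-4 libraries. Most of this sum was Col1a1 (3166.6 to 3859.69 FPKM over the 6 libraries) and Col1a2 (2431.71 to 3155.78 FPKM). Ly6a (SCA-1) was at 108.06 to 291.12 FPKM, Pdgfra at 53.39 to 77.43 FPKM and Dpp4 at 0.22 to 0.4 FPKM. Of the 13 genes, 9 rose, 2 fell and 2 did not pass the test described below, with a median log2 fold change of 0.54. Pi16 (4.02), Cd34 (3.35) and Cd55 (3.14) rose most. FPKM, fragments per kilobase of transcript scaled to the depth of the library, is a level corrected for length and was used wherever genes were compared with each other. All 14 macrophage markers on the list were tested as well, although CD45-positive cells had been depleted before culture. The markers summed to 3336 to 4245 FPKM in control and 1342 to 1703 FPKM in IL-4 libraries. Most of this sum was Lyz2 alone, at 2469.2 to 3224.52 FPKM in control and 673.21 to 937 FPKM in IL-4 libraries. Of the 14 markers, 12 fell, Mrc1 rose (log2 fold change 0.82) and Cd68 did not pass the test (0.38). Without the 2 libraries that stand apart (below), in a fit chosen after values were seen, 12 again fell and 2 rose. The 3 largest falls among the markers were those of Cx3cr1 (-8.65), Aif1 (-4.43) and Coro1a (-4.03). The smallest were those of Adgre1 (-0.24), Itgam (-0.27) and Spi1 (-0.43). Ptprc, which encodes CD45, fell by 0.99 on the log2 scale, and the median of the list was -0.92. In such bulk samples, fewer macrophages and less of an mRNA per macrophage cannot be told apart, and the part of the marker genes' change in the results below was not tested. Such samples also do not show in which cells, APs or macrophages, a gene of the lists below rose or fell. Markers of other cells that carry these receptors were low. They summed to at most 1.77 FPKM over 10 neutrophil and monocyte genes, 1.37 over 13 lymphocyte and NK cell genes and 0.53 over 8 mast cell and basophil genes. Of the lymphocyte and NK cell genes, Cd3e, Cd3d and Ncr1, among others, had no read. The 6 dendritic cell genes summed to 1.45 to 1.96 FPKM in control and 2.85 to 3.35 FPKM in IL-4 libraries. Trem1, at 2.51 to 2.71 FPKM in control libraries, was itself of a similar size, and the part of these cells was not tested. The 6 endothelial markers summed to 12.86 to 13.5 FPKM in control and 9.88 to 10.35 FPKM in IL-4 libraries. Control replicate 3 and IL-4 replicate 6 were above their group's mean for all 7 members other than Trem1, by a median of 0.23 and 0.25 on the log2 scale. In control replicate 3, all 14 macrophage markers were above the mean too (median 0.13), and in IL-4 replicate 6, 7 of the 12 markers compared were (median 0.05).

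With IL-4, the family did not move as one. Fcgr2b and Fcgr4 rose, Fcgr1, Trem1, Fcer1g and Tyrobp fell, and Fcgr3 and Trem2 did not pass the test, for which edgeR's quasi-likelihood p, adjusted by Benjamini-Hochberg over the 14009 genes, had to be under 0.05. At that threshold 2 of the 8 genes were higher, against 19.0% of all genes tested, and 4 were lower, against 18.4%. When a log2 fold change beyond 1 was asked for as well, 1 gene, Fcgr2b, was higher, against 5.77% of all genes, and 3, Fcgr1, Trem1 and Fcer1g, were lower, against 5.26%. The lowest library of one group exceeded the highest of the other in normalized counts for 6 of the 8 genes, against 50.4% of all genes tested. The median log2 fold change of the 8 genes was -0.33, beside 0.003 over all genes tested. Control replicate 3 and IL-4 replicate 6 were also left out together, a choice made after they were seen to be high for these genes. The counts were then again 2 higher and 4 lower at any fold change. Beyond a log2 fold change of 1, they were 1 higher and 3 lower. That choice narrows the spread within the groups, so these counts lend the results no support. With single libraries left out in turn, Fcgr4 and Tyrobp had an adjusted p over 0.05 in several fits, given below.

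**Figure D1:**
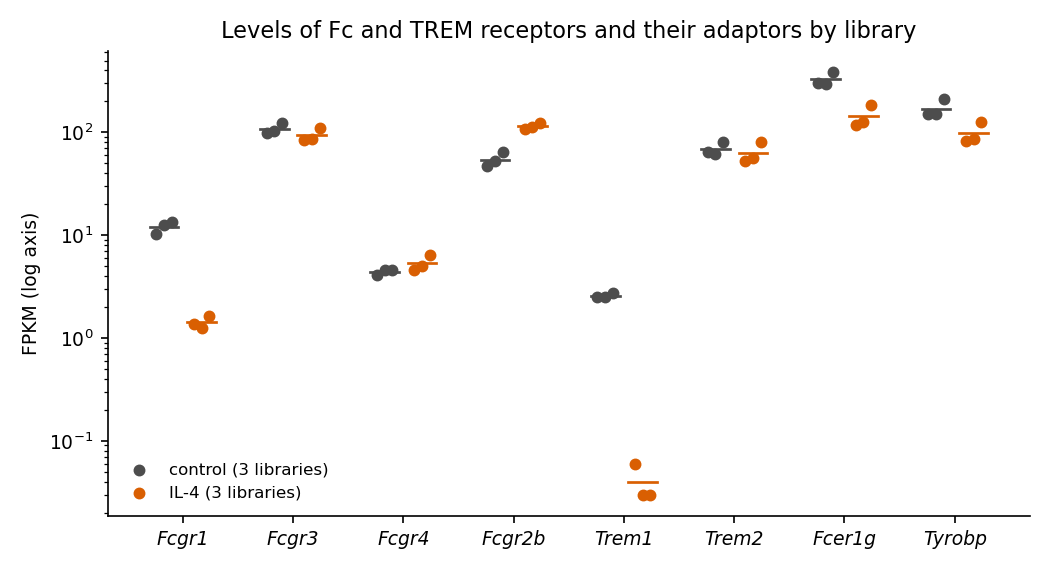
Level of each gene in FPKM on a log axis in the 3 control and 3 IL-4 libraries (points, in replicate order from left to right, with a line at the group mean), receptors first and adaptors last. Fcgr1 and Trem1 lie far lower with IL-4, Fcgr2b lies higher, and the ranges of Fcgr3 and Trem2 overlap.

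Fcgr1 (Entrez gene 14129), which encodes the high-affinity receptor for IgG, fell most among the Fc gamma receptors. Its level was 10.28, 12.42 and 13.3 FPKM in controls and 1.36, 1.24 and 1.65 FPKM with IL-4. Every control library was well above every IL-4 library, and the ranges lay far apart. In normalized counts, Fcgr1 went from 821.6 ± 104 to 109.3 ± 14.2 (mean ± SD, n = 3), and the log2 fold change was -2.91 (SE 0.13, 95% interval -3.22 to -2.60, adjusted p = 1.87e-06 from edgeR), or 7.50-fold lower. Under the 13 alternatives its log2 fold change stayed between -3.08 and -2.42, and it was called lower in each.

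Fcgr3 (Entrez gene 14131), which encodes the low-affinity activating receptor FcγRIII, was the most abundant Fc gamma receptor in the controls. It was read at 99.18, 102.11 and 124.02 FPKM in controls and at 84.97, 85.71 and 109.1 FPKM with IL-4. The groups overlapped, with IL-4 replicate 6 above both control replicates 1 and 2. Normalized counts were 3780 ± 445 and 3667 ± 477 (mean ± SD, n = 3), with a log2 fold change of -0.04 and an interval of -0.31 to 0.22 (adjusted p = 0.796 from edgeR), so changes in either direction within that interval are not excluded by the data.

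Fcgr4 (Entrez gene 246256), which encodes the activating receptor of intermediate affinity FcγRIV, was the least abundant of the 4 Fc gamma receptors in the controls. Its level was 4.09, 4.57 and 4.6 FPKM in controls and 4.6, 5.02 and 6.42 FPKM with IL-4. The ranges touch at 4.6 FPKM, and in normalized counts, which are scaled for the composition of the libraries, they did not overlap. Fcgr4 rose from 141.8 ± 9.2 to 193.3 ± 31.3 normalized counts (mean ± SD, n = 3), and the log2 fold change was 0.45 (95% interval 0.13 to 0.76, adjusted p = 0.0338 from edgeR). This small rise was past the threshold in 4 of 13 alternatives, and over all 13 its log2 fold change ranged from 0.22 to 0.55 and its adjusted p from 0.0215 to 0.153. The call was lost when any 1 library other than IL-4 replicate 4 was left out, with values of 0.39, 0.48 and 0.47 without control replicate 1, 2 or 3 and 0.49 and 0.31 without IL-4 replicate 5 or 6. It was also lost with upper-quartile scaling (0.43), with library totals (0.28) and in limma on log2(FPKM + 1) (0.22) and log2(FPKM + 0.1) (0.26).

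The order of the less abundant activating receptors turned over. Fcgr1 stood at 2.513, 2.718 and 2.891 times the FPKM of Fcgr4 in controls and at 0.2957, 0.247 and 0.257 times with IL-4, which was 10.2-fold lower on average. The groups did not overlap, and the two-sided exact permutation test gave p = 0.1, the smallest that 3 against 3 libraries can give.

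Fcgr2b (Entrez gene 14130), which encodes the inhibitory receptor FcγRIIB whose ITIM codons are given above, was the 1 gene of the 8 called higher. Its level was 46.77, 52.51 and 63.7 FPKM in controls and 108.28, 113.89 and 124.35 FPKM with IL-4. Even the lowest IL-4 library was well above control replicate 3, the highest of the controls. Normalized counts rose from 1994 ± 303 to 4777 ± 263 (mean ± SD, n = 3), and the log2 fold change was 1.26 (SE 0.11, 95% interval 1.01 to 1.51, adjusted p = 5.61e-05 from edgeR), or 2.40-fold. Under the alternatives the log2 fold change ranged from 1.08 to 1.38, and Fcgr2b was called in all 13.

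Fcgr2b and Fcgr3 are close relatives, and their counts were estimated from partly shared reads. Their mRNAs align over 509 bases at 96.5% identity, with an identical run of 129 bases, and 12.2% of all stretches of 50 bases of Fcgr2b also occur in Fcgr3. No stretch of 50 bases was shared by any other pair among the Fc or TREM receptors compared. The deposited counts of both genes are not whole numbers, but their sum is whole in all 6 libraries (within 0.02), so ambiguous reads were divided between this pair. The sum does not depend on that division and was 5175, 5542 and 6604 normalized counts in controls and 7898, 8169 and 9264 with IL-4. It too separated the groups, with a log2 fold change of 0.55 (SE 0.10, adjusted p = 0.00398 from edgeR) for both genes counted as 1. The sum does not show which gene of the pair rose. The separate changes of Fcgr2b and Fcgr3, and the ratios below that use them, rest in part on the division of ambiguous reads.

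The balance between activating and inhibitory Fc gamma receptors differed between the groups at the mRNA level. The summed FPKM of Fcgr1, Fcgr3 and Fcgr4 was 2.428, 2.268 and 2.228 times that of Fcgr2b in controls and 0.8398, 0.8075 and 0.9423 times with IL-4. Activating receptor mRNA exceeded Fcgr2b mRNA in every control library and was below it in every IL-4 library. The mean ratio was 2.308 ± 0.106 in control and 0.8632 ± 0.0704 in IL-4 libraries (mean ± SD, n = 3), 2.68-fold lower (two-sided exact permutation p = 0.1, the smallest possible, and 0.1 after Benjamini-Hochberg adjustment over the 6 ratios computed). Fcgr2b alone made up 29.17%, 30.6% and 30.98% of the FPKM of the 4 receptors in controls and 54.35%, 55.32% and 51.49% with IL-4. Set against Fcgr3 only, Fcgr2b went from 0.4998 ± 0.0245 to 1.248 ± 0.0973 times its FPKM (mean ± SD, n = 3).

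**Figure D2:**
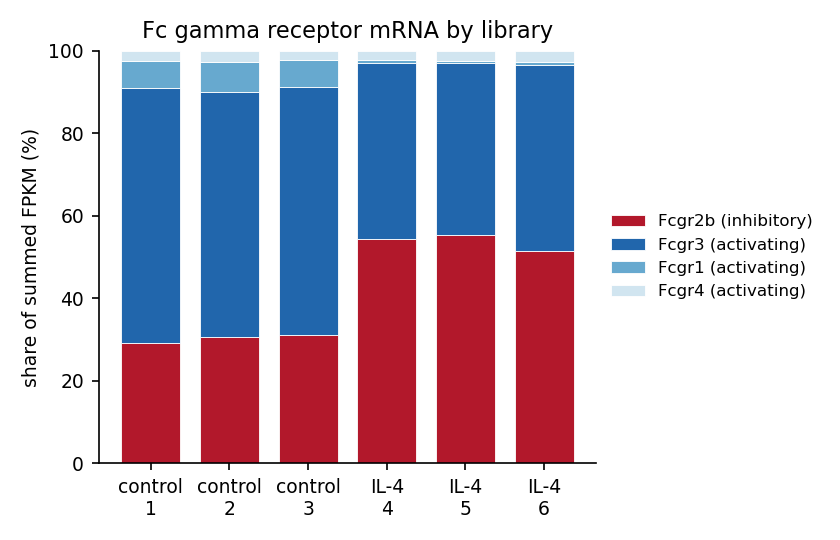
Share of each Fc gamma receptor in the summed FPKM of the 4 receptors, in percent, for each control and IL-4 library (stacked bars, 0 to 100%). Fcgr2b, at the bottom, takes 29.17% to 30.98% in controls and 51.49% to 55.32% with IL-4, and the band of Fcgr1 is thinner with IL-4.

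FcγRIIB exists in a longer form, typical of B cells, and a shorter form, typical of myeloid cells, which differ by an exon that lengthens the cytoplasmic tail. This exon of 141 bases lies at chromosome 1 from 170963325 to 170963465 (GRCm38) and is present in the longer of both RefSeq transcripts only. The files give for each gene a mean transcript length weighted by its forms, which for Fcgr2b was 1417.34 to 1422.43 bases. Taken with the RefSeq lengths of 1406 and 1547 bases, this puts the longer form at 9.78% to 11.7% of Fcgr2b transcripts in control and 8.04% to 9.25% in IL-4 libraries (10.5 ± 1.05% and 8.84 ± 0.69%, mean ± SD, n = 3). The shorter form made up most of the mRNA in every library, and the difference of -1.66 percentage points had an exact permutation p of 0.1, the smallest possible. These shares rest on the assumption that the authors' transcripts had these lengths, since for Fcer1g and Tyrobp the lengths in the files (683 and 586 bases) differ from those of the RefSeq transcripts used here (658 and 575 bases).

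Trem1 (Entrez gene 58217), the amplifier of inflammatory signals, had the largest change of the 8 genes. It was read 214, 212 and 230 times in controls and 5, 3 and 3 times with IL-4. The control libraries lay close together, and every IL-4 library was near the limit of detection. The corresponding levels were 2.53, 2.51 and 2.71 FPKM in control and 0.06, 0.03 and 0.03 FPKM in IL-4 libraries, and normalized counts fell from 207.5 ± 7.12 to 3.883 ± 1.27 (mean ± SD, n = 3). The log2 fold change was -5.70 (SE 0.19, 95% interval -6.15 to -5.25, adjusted p = 4.36e-07 from edgeR), or 51.9-fold lower. After scaling for the size and composition of the libraries, the summed reads, 656 against 11, gave a ratio of 53.6. Its 95% exact interval of 29.8 to 108.0 covers counting error only. With so few reads the size depends on the scale, and the log2 fold change was -1.78 in limma on log2(FPKM + 1). Part of the Trem1 locus is also covered by the lncRNA genes Gm52307 and Gm52308, and whether strand was used in the counting is not given in the sources used here.

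Trem2 (Entrez gene 83433), the lipid-sensing member, was more than an order of magnitude more abundant than Trem1 and did not pass the test. Its level was 63.82, 61.05 and 81.07 FPKM in controls and 52.7, 56.42 and 79.75 FPKM with IL-4. The highest library of either group, control replicate 3 and IL-4 replicate 6, stood well above its other two. IL-4 replicates 4 and 5 were below every control in FPKM, and the ranges overlapped through IL-4 replicate 6. Normalized counts were 1926 ± 289 and 1987 ± 427 (mean ± SD, n = 3), with a log2 fold change of 0.05 and an interval of -0.32 to 0.41 (adjusted p = 0.85 from edgeR). The sign depended on the scaling, with -0.13 under library totals.

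The ratio of the TREM receptors separated the groups. Trem2 stood at 25.13, 24.23 and 29.81 times the FPKM of Trem1 in controls and at 753, 1411 and 1994 times with IL-4 (0.01 was added to each FPKM). That is 48.9-fold higher on average (exact permutation p = 0.1, the smallest possible). The size depends on the value added, with a log2 difference of 5.61 with 0.01 and 4.13 with 0.1, and within the IL-4 group, where Trem1 had 3 to 5 reads per library, the ratio spread widely. For Trem2, the weighted transcript length puts the longer RefSeq form, which has 55 more bases at the start of exon 4, at 20.7%, 21.7% and 22.4% of transcripts in the control and 19.4%, 18.3% and 15.7% with IL-4. The groups did not overlap (difference -3.80 percentage points, exact permutation p = 0.1), under the same assumption on lengths as for Fcgr2b.

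The adaptors were the most abundant of the 8 genes in the controls, and both fell. Fcer1g (Entrez gene 14127), the gamma chain of the activating Fc receptors, was read at 300.03, 297.36 and 387.49 FPKM in controls and at 118.57, 126.65 and 183.93 FPKM with IL-4. IL-4 replicate 6 was the highest of its group but still far below every control. Normalized counts fell from 5464 ± 812 to 2688 ± 627 (mean ± SD, n = 3), and the log2 fold change was -1.02 (SE 0.17, 95% interval -1.41 to -0.63, adjusted p = 0.00192 from edgeR), or 2.03-fold lower. The adjusted p stayed under 0.05 in all 13 alternatives, whereas the log2 fold change was no longer beyond 1 without control replicate 3 (-0.90), IL-4 replicate 4 (-0.90) or IL-4 replicate 5 (-0.94).

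Tyrobp (Entrez gene 22177), the adaptor of both TREM receptors, had 150.27, 149.28 and 210.88 FPKM in controls and 81.76, 85.59 and 126.95 FPKM with IL-4. Here too the groups did not overlap, and control replicate 3 and IL-4 replicate 6 were high. Normalized counts fell from 2383 ± 476 to 1552 ± 372 (mean ± SD, n = 3), and the log2 fold change was -0.62 (SE 0.19, 95% interval -1.05 to -0.19, adjusted p = 0.0329 from edgeR), or 1.54-fold lower. The adjusted p was over 0.05 without control replicate 1 (log2 fold change -0.70), control replicate 3 (-0.44), IL-4 replicate 4 (-0.50) or IL-4 replicate 5 (-0.53). Without both control replicate 3 and IL-4 replicate 6, it was 1.26e-08 from edgeR. These 2 libraries were left out after they were seen to be high for these genes. That choice narrows the spread within the groups, so this p lends the fall no support. Fcer1g stood at 1.997, 1.992 and 1.837 times the FPKM of Tyrobp in controls and at 1.45, 1.48 and 1.449 times with IL-4, 1.33-fold lower (exact permutation p = 0.1, the smallest possible). This ratio varied little within either group, although both adaptors were raised in the same 2 libraries.

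**Figure D3:**
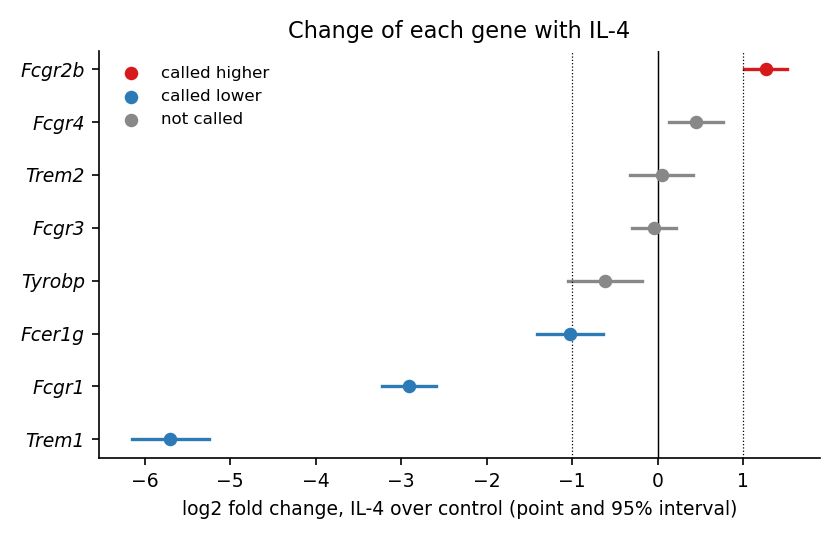
Fitted log2 fold change of each gene, IL-4 over control, with its 95% interval. Dotted lines mark a log2 fold change of 1 in either direction. Trem1 (-5.70), Fcgr1 (-2.91) and Fcer1g (-1.02) are called lower and Fcgr2b (1.26) higher, while the intervals of Fcgr3 and Trem2 include 0.

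In the controls the levels ran from Fcer1g (99.0th percentile of all listed genes in mean FPKM) through Tyrobp, Fcgr3, Trem2, Fcgr2b, Fcgr1 and Fcgr4 to Trem1 (41.1st percentile). Of the neighbours in this order only Trem2 and Fcgr2b overlapped in their ranges. With IL-4 the order was Fcer1g, Fcgr2b, Tyrobp, Fcgr3, Trem2, Fcgr4, Fcgr1 and Trem1, and the first 4 overlapped from neighbour to neighbour. Fcgr2b thus moved from the fifth to the second place, and Fcgr1 came to stand below Fcgr4.

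Promoters of the family were searched for a short element to see what the genes share in sequence. GAGGAAG, which contains the core bound by the macrophage factor PU.1, was looked for on both strands in the window from 250 bases before to 50 bases after the RefSeq start, and was chosen after the sequences had been seen. It occurred in 4 of the 7 members that have an entry, beside 13.5% of 27025 promoters. Because the element was chosen after these sequences had been seen, setting these shares side by side does not test whether the family is enriched for it. All 4 matches are on the strand opposite to the gene, and each is shown in capitals on the gene's strand within 29 bases of GRCm38 sequence.
Fcgr1, chr3:96294008-96294036, minus strand: atggcaacttcCTTCCTCttttctaatct
Fcgr3, chr1:171059393-171059421, minus strand: gagtccatttcCTTCCTCtttttgtagtt
Fcgr4, chr1:171018892-171018920, plus strand: aaggctatttaCTTCCTCtcttctagtca
Trem2, chr17:48346349-48346377, plus strand: agcctcctttcCTTCCTCcctccctcacg
The match ends 49 bases before the start in Fcgr1, 16 in Fcgr4 and 34 in Trem2, and in Fcgr3 it adjoins the start. For Fcgr3 this is the start of the transcript used here, at 171059403, whereas the annotated gene reaches further upstream, to 171065915. The genes that hold it include one that fell (Fcgr1), one that rose (Fcgr4) and both that did not pass the test. The spaced palindrome bound by STAT6 downstream of the IL-4 receptor, TTC followed after 4 bases by GAA, occurred in 0 of the 7 windows, against 6.99% of all promoters. Tyrobp had no entry.

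Other Fc receptors moved in both directions. Of 14 on the list, 5 were tested, 2 rose and 3 fell. Fcgrt, the neonatal Fc receptor that recycles IgG, rose from 2610 ± 183 to 4520 ± 352 normalized counts (mean ± SD, n = 3, log2 fold change 0.79). Fcrls, an Fc receptor-like gene of macrophages and microglia, fell from 10620 ± 1660 to 1578 ± 117 (log2 fold change -2.75), and Trim21, the cytosolic Fc receptor, fell by 0.43 on the log2 scale. Fcrl1, read 49 to 60 times in control and at most 1 time in IL-4 libraries, was at least 16.0-fold lower against a floor of 3 counts per library, and Fcrlb rose to 28.91 ± 3.14 normalized counts (log2 fold change 2.48). The high-affinity IgE receptor chain Fcer1a, which pairs with Fcer1g on mast cells, had no read in any library. Of the other TREM genes, Treml1 (-0.06) and Treml2 (-0.02) were tested and neither passed, and the adaptor Hcst (DAP10) did not pass at 10.46 ± 2.61 and 11.56 ± 4.58 normalized counts (mean ± SD, n = 3).

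Other receptors that use Fcer1g, Tyrobp or Hcst as adaptor were mostly lower. Of 14 tested, 8 fell, 3 rose and 3 did not pass, with a median log2 fold change of -0.80 and 6 called lower. Among those with a mean of at least 100 normalized counts, the 3 largest falls were those of the C-type lectins Clec4e (Mincle, from 497.8 ± 102 to 22.17 ± 5.87 normalized counts, log2 fold change -4.48), Clec4n (Dectin-2, -3.02) and Clec4d (-2.18), which sense microbial and cell debris glycolipids or glycans through Fcer1g. Clec5a, a partner of Tyrobp, fell by 1.79 on the log2 scale. Those that rose were Cd300ld (0.94), Cd200r4 (0.68) and Cd300lb (0.40).

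Downstream of the ITAMs, the central kinase gene Syk did not pass the test, at 1531 ± 132 and 1512 ± 139 normalized counts (mean ± SD, n = 3, log2 fold change -0.02, interval -0.23 to 0.19). Of 26 kinases and effectors tested, 13 fell and 3 rose, with a median of -0.31. The adaptor gene Pik3ap1 fell by 1.77 and the exchange factor gene Vav1 by 1.66 on the log2 scale, and Plcg2 (-1.55) and Lyn (2308 ± 121 to 1150 ± 8.09 normalized counts) were called lower as well. Fyn, a Src-family kinase gene, rose from 2832 ± 94.3 to 5555 ± 184 normalized counts (log2 fold change 0.97), and which cells of the culture carried this rise was not tested. Among 20 genes of inhibitory receptors and of enzymes and docking proteins of inhibitory signalling, 10 fell and 5 rose (median -0.30). The phosphatase genes Ptpn6 (SHP-1, -1.60) and Inpp5d (SHIP1, -1.32), the latter the main effector of FcγRIIB, fell while Fcgr2b rose. Inhibitory receptor genes went either way, with Clec12a (-3.01) and Pilra (-2.83) lower and Cd300lf (1.09) higher, and the docking protein gene Dok1 rose (1.19).

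**Figure D4:**
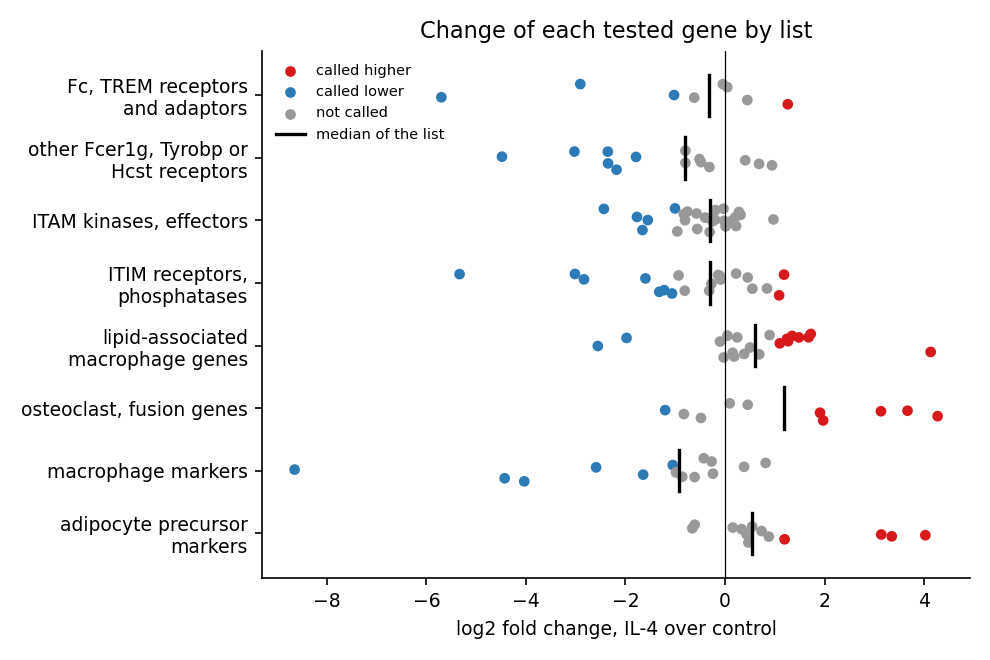
Log2 fold change, IL-4 over control, of each tested gene (points) in the family and in 7 lists of related genes, with a black line at each list's median. Red points are called higher, blue points lower and grey points are not called. Medians run from -0.92 for macrophage markers to 1.18 for osteoclast and fusion genes.

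Ligands and sheddases of the receptors were mixed, with 2 of 12 tested genes higher, 4 lower and 6 not past the test. Apoe, whose product binds TREM2, fell from 17660 ± 3410 to 4479 ± 814 normalized counts (mean ± SD, n = 3, log2 fold change -1.98), and the complement gene C1qa fell by 1.20 on the log2 scale. C3 rose from 1198 ± 70.8 to 15160 ± 1690 (3.66), and the pentraxin gene Ptx3, whose product binds Fc gamma receptors, rose by 1.06. Adam10 (0.18) and Adam17 (0.14), which cleave TREM2 from the cell surface, did not pass the test.

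Genes of lipid-associated macrophages, a state in which TREM2 is known to act, had a median log2 fold change of 0.60. Of 20 tested, 12 rose, 2 fell and 6 did not pass. Itgax (CD11c) rose from 173.3 ± 27.8 to 3037 ± 157 normalized counts (mean ± SD, n = 3, log2 fold change 4.13), Lpl rose by 1.72 and Ch25h by 1.68, while Spp1 (-2.56) and Apoe (-1.98) fell and Trem2 itself, as given above, did not pass. Some of them, such as Lpl, Fabp4 and Cd36, are also expressed by cells of the adipocyte lineage. Osteoclast and cell fusion genes, a programme in which Tyrobp and Trem2 take part, rose in 6 of 10 cases and fell in 2, with a median of 1.18. Among those with a mean of at least 100 normalized counts, the largest rises were those of Atp6v0d2 (3.67), Acp5 (3.13) and Itgb3 (1.97), and the receptor gene Tnfrsf11a (RANK) fell by 1.20, as did Nfatc1 by 0.83.

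The genes whose levels followed each member most closely over the 6 libraries were sought among 11419 genes, as Pearson's r of TMM-scaled log2 CPM. Because the libraries form 2 groups, a high r for a gene that differs between them mostly restates that difference. For the 2 members that did not pass the test, r rests more on libraries within a group, and the closest genes were Fabp5 (0.9958), H3f3a (0.9953) and Mcts1 (0.9942) for Fcgr3 and Lin37 (0.9972), 2310011J03Rik (0.9955) and Clta (0.9954) for Trem2. Fcgr2b was closest to the transcription factor gene Tfec (0.999), then to Larp6 and to the hexokinase gene Hk3. Fcer1g was closest to Iqcb1, Tuba1a and Tnfaip8l2, Tyrobp to Dpep2, Ucp2 and Ube2n, Fcgr1 to Cdca7l, G530011O06Rik and Acat2, Fcgr4 to Rpp38, Dcxr and Oxa1l, and Trem1 to Nanos1, Fst and Hspa1b. With 6 libraries, each is a description only.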

How the data were processed

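mRNA-seq libraries of 3 control and 3 IL-4–treated AP cultures were used, grouped by their labels; the small RNA files were not used. The authors purified poly-A RNA, sequenced it on the BGISEQ-500, filtered reads with SOAPnuke, mapped them to mm10 with HISAT, and estimated gene levels with RSEM after Bowtie2. The files they deposited hold, per gene, the expected count (an estimated count, not normalized) and the FPKM, scaled by the authors for transcript length and library size. Genes not listed in a library were taken as 0, and 1 row without a gene name (at most 0.000225% of counts) was left out. The files' columns of other kinds were not used. The submitters' processing notes also name StringTie, and versions are not given in the sources used here.

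After rounding of the expected counts, genes were kept by filterByExpr with its minimum count of 10 and minimum total of 15, libraries were scaled with TMM, and groups were compared with edgeR 4.0.16 (R 4.3.3) by its quasi-likelihood test, with p-values adjusted by Benjamini-Hochberg over 14009 genes. Normalized counts were brought to the mean TMM-scaled library size. With 28526782 to 29057787 counts per library, counting error matters only for the least abundant genes. Ratios of FPKM were compared with two-sided exact permutation tests. DESeq2 1.42.0 and limma 3.58.1 served in alternatives, with other scalings, no filter, other pseudocounts and each library left out in turn. Sequences, loci and promoters come from RefSeq on GRCm38.p6, the assembly of mm10, read with biopython 1.88.

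The members and the gene lists were chosen with earlier results of these data known. Named were all 8 members, the other Fc, TREM and adaptor genes with a mean of at least 10 normalized counts in a group, and of longer lists up to 3 called rises and 3 called falls with a mean of at least 100 normalized counts. A result that this rule would name is not reported here. Other list genes, the promoter elements, 3 of the 6 ratios, the fit of Fcgr2b and Fcgr3 as 1 gene and the fit without both high libraries were chosen after values were seen.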

Additional observations from a re-analysis of the deposited data

How the results depend on the processing

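No paired analysis was possible because the labels number the control libraries 1 to 3 and the IL-4 libraries 4 to 6, so that the groups share no number. Over all genes, limma on log2(FPKM + 1) gave 348 genes higher and 352 lower in place of 809 and 737, and an adjusted p under 0.05 at any fold change gave 2663 and 2582, with 2 members higher in place of 1. Leaving out each library in turn gave 812 to 835 genes higher and 699 to 738 lower, 1 member higher and 2 to 3 lower. Library totals without further scaling, which shift the median log2 fold change of all genes to -0.17, gave 657 higher and 961 lower. Fcgr1, Fcgr2b and Trem1 were called in all 13 alternatives. Fcgr3 and Trem2, which passed no test, changed sign: Fcgr3 ranged from -0.151 to 0.055 with 1 library left out, and Trem2 from -0.139 to 0.174, with -0.125 under library totals, -0.136 and -0.138 under limma on log2(FPKM + 1) and log2(FPKM + 0.1), and -0.014 without control replicate 3 and IL-4 replicate 6. The cause was not tested. Without those 2 libraries, 5 ITAM effectors rose in place of 3 and 16 fell in place of 13, with 4 called lower in place of 5 (Lyn was no longer called), 4 ligands or sheddases rose in place of 2, with 1 called higher in place of 2 (Ptx3 was no longer called), and 5 macrophage markers were called lower in place of 6. The log2 differences of the 3 planned ratios kept their sign in all 9 alternatives each, from -1.53 to -1.38 for activating over inhibitory Fc receptors, from 4.13 (0.1 added to each FPKM) to 6.00 for Trem2 over Trem1 and from -0.45 to -0.39 for Fcer1g over Tyrobp, but 3 against 3 libraries cannot give a p under 0.1. Depth limits Trem1 in the IL-4 group, Fcrl1, Fcrlb and Hcst.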
